A study of Mus musculus with 2 samples.

Results

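Zinc is an essential cofactor that is toxic in excess, and liver cells hold its free level low by binding and transport. Metallothioneins are small cysteine-rich proteins that bind zinc and copper, and their genes are switched on by metals, glucocorticoids and interleukin 6 in liver. The zinc-sensing transcription factor MTF1 binds metal response elements in the promoters of its targets, transporters of the ZIP family (genes named Slc39) carry zinc into the cytosol, and those of the ZnT family (Slc30) carry it out of the cytosol. The 7 genes described here are the metallothioneins Mt1 and Mt2, Mtf1, the importers Slc39a14 and Slc39a4, and the exporters Slc30a1 and Slc30a10. They were chosen by name, as the rows of both count tables whose Ensembl identifier carries those symbols in GENCODE M21, and are 7 of 55421 genes listed.

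RNA from mouse liver was sequenced in 2 libraries, each with a labelled time of 8 weeks. The WT library came from mice carrying floxed Rcrin alleles and the other library from Rcrin conditional knockout mice. The Cre driver, the number of mice per library and their sex are not stated in the labels. Since each genotype had 1 library, the spread between mice is unknown and no test could be made, so every difference is one between these 2 libraries, and each 95% interval covers counting error only. Total counts were 65121596 (WT) and 63587567 (knockout). The level of Rcrin was not analysed here, because 0 genes of the reference tables carried that name. All 9 hepatocyte markers had counts in both libraries, with a summed level of 128340 CPM (counts scaled to a library of 1000000) in the WT library and 159100 in the other. Without albumin (Alb), the other 8 summed to 77802 CPM (WT) and 69477 CPM (knockout), with Trf (-0.93), Fgb (-0.81) and Apob (-0.32) below 0 in log2 ratio and 5 above it.

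The metallothionein genes were much lower in the knockout library, whereas the zinc transporters and Mtf1 differed by far less. Mt1 was 12.2-fold lower and Mt2 35.9-fold lower. Slc39a14 was higher by close to 2-fold, with an interval that spans that limit, and Mtf1, Slc30a1, Slc30a10 and Slc39a4 stood within 1.5-fold. By a log2 ratio of knockout over WT of at least 1 in size, 2 of the 7 genes counted as lower and 0 as higher. Of the 12064 genes whose mean reached 50 counts, 8.61% counted as lower and 8.45% as higher, and all 7 genes passed that filter.

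Mt1 and Mt2 lie 5513 bases apart on chromosome 8, both on the plus strand and each with 3 exons. Their coding sequences in GENCODE transcripts are shown because reads of close paralogs can be split between them. Capitals mark the positions at which the aligned sequences differ.
Mt1: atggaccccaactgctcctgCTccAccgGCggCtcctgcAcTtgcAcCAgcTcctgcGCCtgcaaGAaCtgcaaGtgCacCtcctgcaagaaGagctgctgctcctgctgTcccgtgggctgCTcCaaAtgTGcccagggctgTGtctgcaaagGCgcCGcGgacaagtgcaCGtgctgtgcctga
Mt2: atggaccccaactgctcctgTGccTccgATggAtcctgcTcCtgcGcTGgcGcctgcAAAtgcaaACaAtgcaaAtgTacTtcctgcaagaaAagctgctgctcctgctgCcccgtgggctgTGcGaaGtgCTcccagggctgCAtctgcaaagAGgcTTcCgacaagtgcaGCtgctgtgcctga
Of 186 bases, 148 were identical (79.6%), and the longest identical run was 20 bases. None of the 1292 different 50-base windows of the annotated Mt1 transcripts occurred in a transcript of another gene in either orientation, and none of the 554 Mt2 windows occurred in such a transcript in the same orientation. In the opposite orientation, 254 of the Mt2 windows (45.8%) occurred in the antisense gene Gm45774. The labels do not state the read length.

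The 250 bases before the RefSeq start site of 3 of the genes (build GRCm38.p6, plus strand) show where the core of the metal response element occurs. Capitals mark matches to TGCACNC or TGCGCNC on either strand. The windows are chr8:94178839-94179088 for Mt1, chr8:94172368-94172617 for Mt2 and chr1:191906531-191906780 for Slc30a1, the zinc exporter of the plasma membrane.
Mt1: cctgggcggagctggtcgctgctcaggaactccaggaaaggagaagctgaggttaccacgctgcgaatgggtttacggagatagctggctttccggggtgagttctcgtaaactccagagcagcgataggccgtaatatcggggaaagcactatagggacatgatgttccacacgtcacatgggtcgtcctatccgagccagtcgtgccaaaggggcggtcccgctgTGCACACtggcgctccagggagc
Mt2: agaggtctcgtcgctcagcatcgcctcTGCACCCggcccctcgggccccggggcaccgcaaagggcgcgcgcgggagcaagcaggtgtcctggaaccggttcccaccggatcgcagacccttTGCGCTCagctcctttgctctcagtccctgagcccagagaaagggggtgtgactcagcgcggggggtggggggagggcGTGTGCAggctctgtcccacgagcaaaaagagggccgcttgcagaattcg
Slc30a1: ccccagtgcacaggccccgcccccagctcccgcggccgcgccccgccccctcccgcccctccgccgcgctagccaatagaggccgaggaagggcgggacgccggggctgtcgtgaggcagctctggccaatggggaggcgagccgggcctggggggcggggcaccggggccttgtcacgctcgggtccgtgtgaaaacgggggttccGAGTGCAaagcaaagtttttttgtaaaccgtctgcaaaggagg
The Mt1 window held 1 match, the Mt2 window 3 and the Slc30a1 window 1. The window of Slc30a10 held 3 matches, of which 2 overlap on opposite strands, and the window of Mtf1 held 0. Of 32841 windows of the same length in the RefSeq table, 21.4% held at least 1 match and 1.26% held at least 3. Windows with a match belonged to genes far lower in the knockout library (Mt1, Mt2) and to genes within 1.5-fold (Slc30a1, Slc30a10). The part of these elements in the result was not tested. The core of the antioxidant response element, TGACNNNGC, matched once in the Mt2 window and once in the Slc30a1 window and occurs in 10.2% of windows. Sequence outside the windows was not scanned for it. TTCNNNGAA, the core bound by STAT factors, had 0 matches in these 5 windows and occurs in 7.02% of all. A window says nothing of elements outside it, and annotated starts differ: the first GENCODE start of Mt2 lies 46 bases after the RefSeq start. For Mt1, which has 3 annotated transcripts, only the window before 1 RefSeq start was scanned, and the sequence after base 94179088 was not. Its 1 match to the metal core and its 0 matches to the antioxidant core thus say nothing of elements further downstream. The Mtf1 window (chr4:124802299-124802548) lies wholly after the first GENCODE start of that gene (124802104). Its 0 matches thus say nothing of the sequence before that start. Windows for Slc39a14 and Slc39a4 were not used here.

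**Figure D1:**
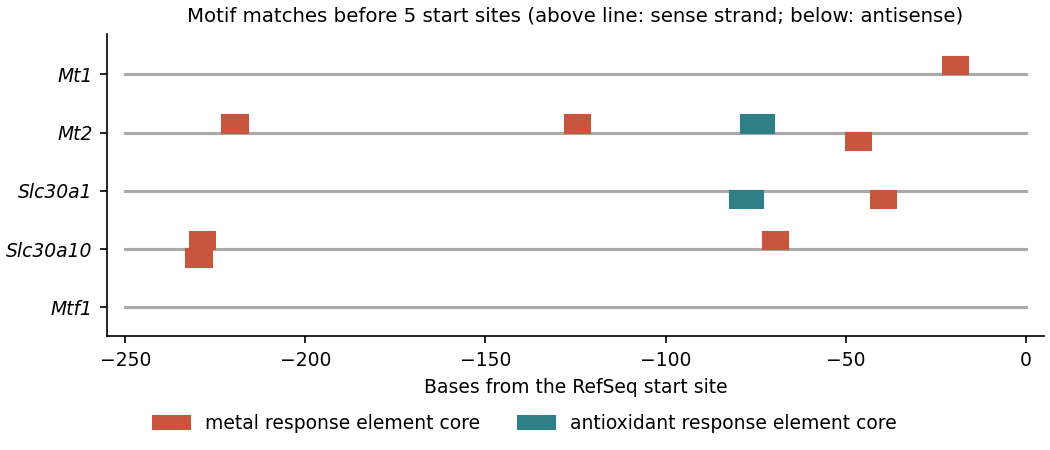
Position of motif matches in the 250 bases before the RefSeq start site of Mt1, Mt2, Slc30a1, Slc30a10 and Mtf1, with distance in bases on the x axis; blocks above a line are on the sense strand and blocks below it on the antisense strand. Mt2 and Slc30a10 each have 3 blocks for the metal response element core, Mt1 and Slc30a1 have 1 and Mtf1 has 0.

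Mt1 (ENSMUSG00000031765, GRCm38 chromosome 8 from 94179082 to 94180327) was read 47324 times in WT and 3668 times in the knockout. Scaled by TMM, these are levels of 714 and 58.7 CPM. The log2 ratio was -3.60 (interval -3.65 to -3.56), or 12.2-fold lower (11.8 to 12.6). In the WT library Mt1 ranked 166th by counts among the genes compared, and in the knockout library 1930th.

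Mt2 (ENSMUSG00000031762, chromosome 8 from 94172664 to 94173568) had 15695 and 412 counts, or 237 and 6.59 CPM. Its log2 ratio was -5.16 (interval -5.31 to -5.02), a 35.9-fold lower level (32.6 to 39.7). Only 89 of the genes compared, Mt2 included, had a ratio as low, and for Mt1 the number was 134.

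Summed, the WT count of both metallothioneins was 63019 and the knockout count 4080, 14.6-fold lower (14.1 to 15.0). They took 0.0968% of WT counts (Wilson interval 0.0960% to 0.0975%) and 0.00642% of knockout counts (0.00622% to 0.00662%). As counted, the 2 genes were not lower to the same degree. Mt1 made up 75.1% of their summed counts in WT (74.8% to 75.4%) and 89.9% in the knockout (88.9% to 90.8%), and the log2 ratio of Mt1 exceeded that of Mt2 by 1.56 (exact conditional interval 1.41 to 1.71). The brain and epithelial metallothioneins Mt3 and Mt4, which lie on the same chromosome, were listed at 0 in both libraries, where 3 counts would be 0.0453 CPM (WT) and 0.0480 CPM (knockout).

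Mt2 is overlapped on the opposite strand by Gm45774, an antisense gene with 1 exon, over 432 exonic bases. The WT and knockout counts of Gm45774 were 3951 and 427, a log2 ratio of -3.12. Without knowledge of strand use in the counting, reads of Mt2 and Gm45774 cannot be told apart. With their counts added together the log2 ratio was -4.46, so Mt2 stayed lower by a smaller amount, nearer to the -3.60 of Mt1. How reads in the overlap were counted is not stated, and any left out of both counts are not restored by this sum. The shares of Mt1 and the interval of its difference from Mt2, given above, do not allow for the overlap. Mt1 has no such overlap in the annotation.

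**Figure D2:**
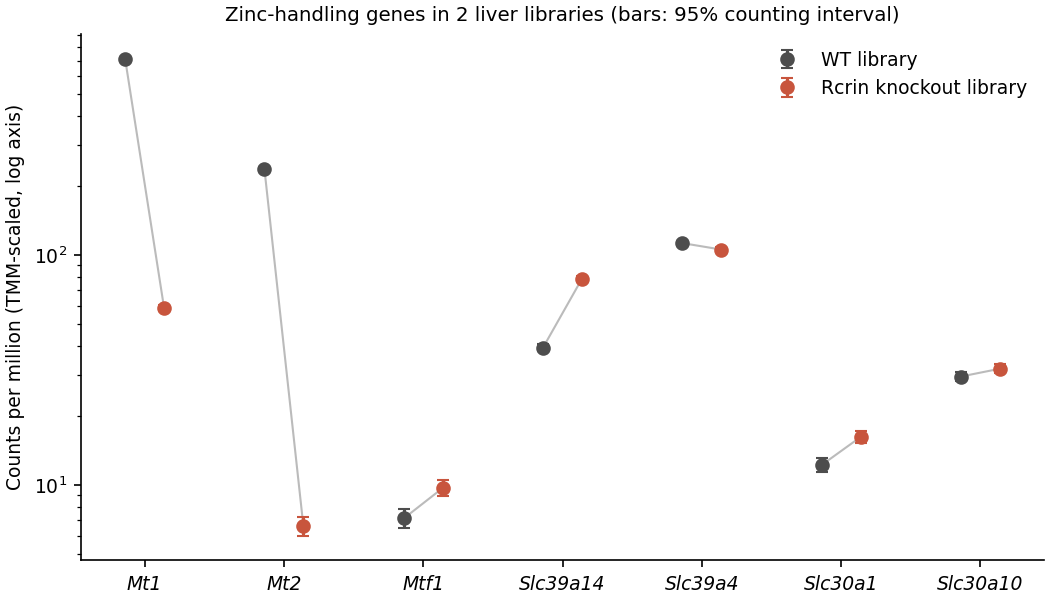
TMM-scaled CPM (log axis) of the 7 genes in the WT and the knockout library, 1 point per library, with bars for the 95% Poisson counting interval. Mt1 goes from 714 to 58.7 CPM and Mt2 from 237 to 6.59 CPM, while Slc39a14 goes from 39.5 to 78.8 CPM and the other genes move little.

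Both metallothioneins have few exons, and the spread of log2 ratios was wider among genes of that kind. Of 648 genes compared that have 3 exons, 1.85% were lower by at least 8-fold and 2.47% higher by at least 8-fold, against 1.44% lower by as much among all genes compared. Among 250 genes of 3 exons that had counts in each library and averaged 1000 counts or more, 4 had a ratio as low as that of Mt1, including Mt1 and Mt2 themselves, and 1, Mt2, as low as its own. The part of exon number in the result was not tested.

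**Figure D3:**
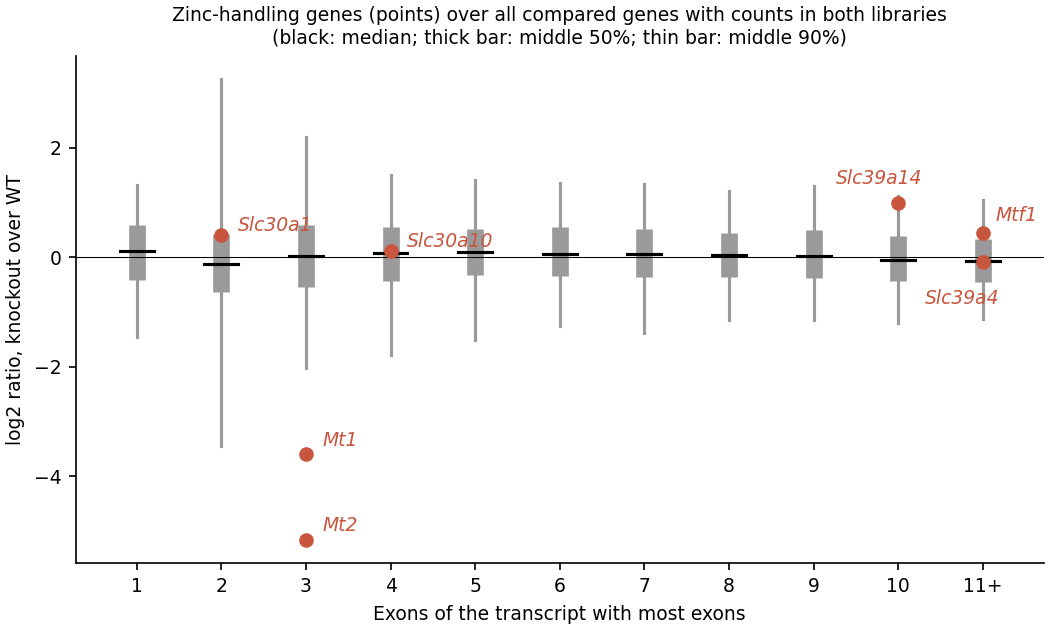
log2 ratio of knockout over WT (y axis) against the exons of the transcript with most exons (x axis), for all compared genes with counts in both libraries (median, middle 50% and middle 90%) and for the 7 genes (points). Mt1 and Mt2 lie below the middle 90% of genes with 3 exons, which runs from -2.02 to 2.19, and the other 5 lie inside that of their class.

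Mtf1 (ENSMUSG00000028890, chromosome 4 from 124802104 to 124849800), which encodes the transcription factor, had WT and knockout counts of 473 and 605, or 7.14 and 9.68 CPM. The log2 ratio was 0.44 (interval 0.26 to 0.62). Mtf1 was thus slightly higher where its best known targets Mt1 and Mt2 were far lower. It overlaps 1110065P20Rik on the opposite strand over 721 exonic bases, and that gene had 996 and 951 counts.

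Other genes described as dependent on MTF1 stood within 2-fold. The list of 8 genes had 2 lower, Mt1 and Mt2, 0 higher and 6 between, beside 8.61% lower and 8.45% higher among all genes compared. With so few genes, 0 of the other 6 past the limit does not set them apart. The list had a median log2 ratio of -0.29, beside a median of -0.01 over all genes compared. With the GC trend removed the list's median was -0.07. Both medians of the list include Mt1 and Mt2. The other 6 genes ran from -0.56 (Slc39a10) to 0.96 (Gclc), with 3 of them above 0. Gclc, the catalytic subunit of the enzyme that starts glutathione synthesis, was the highest at 0.96 (5554 and 10200 counts), and Ndrg1 had a log2 ratio of 0.58.

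The importers differed from each other. Slc39a14 (ENSMUSG00000022094, chromosome 14 from 70303469 to 70351425) encodes ZIP14, which takes zinc, manganese and non-transferrin iron into hepatocytes and is known to be induced by interleukin 6. Its WT and knockout counts were 2618 and 4926, or 39.5 and 78.8 CPM. Its log2 ratio of 0.9972 (interval 0.93 to 1.07) lay just under the limit of 1. With a trend of the log2 ratio with GC content removed it was 1.19, past the limit. Slc39a14 was thus on the opposite side of 0 from the metallothioneins.

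Slc39a4 (ENSMUSG00000063354, chromosome 15 from 76612383 to 76617384) encodes ZIP4, known as the importer that takes up dietary zinc in the intestine. It had 7456 and 6586 counts, or 112 and 105 CPM. The log2 ratio of -0.09 (interval -0.14 to -0.05) was 0.15 with the GC trend removed, so it has no firm direction. Of 7 enterocyte markers, Lct, Sis and Alpi were listed at 0 in both libraries, while Fabp2 (1388 and 1916 counts), Apoa4 (29053 and 5270), Slc5a1 (42 and 26) and Vil1 (10 and 21) were detected. Their part in the level of Slc39a4 was not tested.

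The exporters were close to level. Slc30a1 (ENSMUSG00000037434, chromosome 1 from 191906767 to 191913247) encodes ZnT1, the zinc exporter of the plasma membrane and a known MTF1 target. It had 808 and 1009 counts, or 12.2 and 16.2 CPM, and a log2 ratio of 0.41 (interval 0.27 to 0.54). Slc30a1 has only 2 exons, a class in which the middle 90% of log2 ratios ran from -3.44 to 3.26. Slc30a10 (ENSMUSG00000026614, chromosome 1 from 185454848 to 185468762) encodes ZnT10, which exports manganese. It had 1960 and 1998 counts, or 29.6 and 32.0 CPM, and its log2 ratio of 0.11 (interval 0.02 to 0.20) was -0.0012 with the GC trend removed. The antisense genes that overlap these exporters, 1700034H15Rik and Gm2061, had at most 20 counts in a library.

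The order of the genes by level depends on transcript length. Scaled to the median length of a gene's transcripts, the levels in the WT library were 1128 CPM per kilobase for Mt1, 527 for Mt2, 72.6 for Slc39a4, 53.8 for Slc39a14, 9.14 for Mtf1, 5.07 for Slc30a10 and 4.12 for Slc30a1. In the knockout library the same scale gave 107 for Slc39a14, 92.8 for Mt1, 68.1 for Slc39a4, 14.7 for Mt2, 12.4 for Mtf1, 5.48 for Slc30a10 and 5.46 for Slc30a1. The counting intervals of Mt2 and Mtf1, and those of the exporters, overlapped in the knockout library. Mt2 thus moved from the second place to the fourth. By the longest transcript Mt1 (54.1), Slc39a4 (38.3) and Slc39a14 (15.4) led in the knockout library and Mtf1 came last (1.27), so the places of Slc39a14 and Mtf1 rest on the length used.

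Among ZIP and ZnT genes that averaged 50 counts or more, none was past 2-fold in either direction, except Slc39a14 with the GC trend removed. Of 14 ZIP genes 12 were compared, with 0 lower, 0 higher and a median log2 ratio of -0.19, which was 0.04 with the GC trend removed. Among all genes compared, 8.61% were lower and 8.45% higher, so counts in a family this small do not set it apart. Slc39a1, a ZIP of the plasma membrane with 12974 and 7860 counts, had the lowest ratio at -0.64 (interval -0.68 to -0.60). Slc39a6 (-0.59), Slc39a10 (-0.56) and Slc39a5 (-0.44) followed, at 163 counts or fewer in a library. Slc39a3 (-0.23), Slc39a13 (-0.22), Slc39a7 (-0.16), Slc39a9 (0.03) and Slc39a11 (0.11) lay near 0. Slc39a8, the closest relative of Slc39a14, had 348 and 548 counts and a log2 ratio of 0.74 (interval 0.54 to 0.94). Slc39a2, with 32 and 8 counts, and Slc39a12, with 5 and 0, were below the filter.

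Of 10 ZnT genes 8 were compared, with 0 lower, 0 higher and a median log2 ratio of 0.26 (0.07 with the GC trend removed). Beside these counts, again too small to set the family apart, stand 8.61% lower and 8.45% higher among all genes compared. Slc30a4 stood highest at 0.79 (214 and 350 counts). Slc30a7 (0.57) and Slc30a9 (0.44) came next, and Slc30a5 (0.04), Slc30a3 (-0.30) and Slc30a6 (-0.30) were lowest. Slc30a3 had only 60 and 46 counts, and its interval of -0.88 to 0.28 spans 0. Slc30a2 and Slc30a8 had at most 4 counts in a library.

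**Figure D4:**
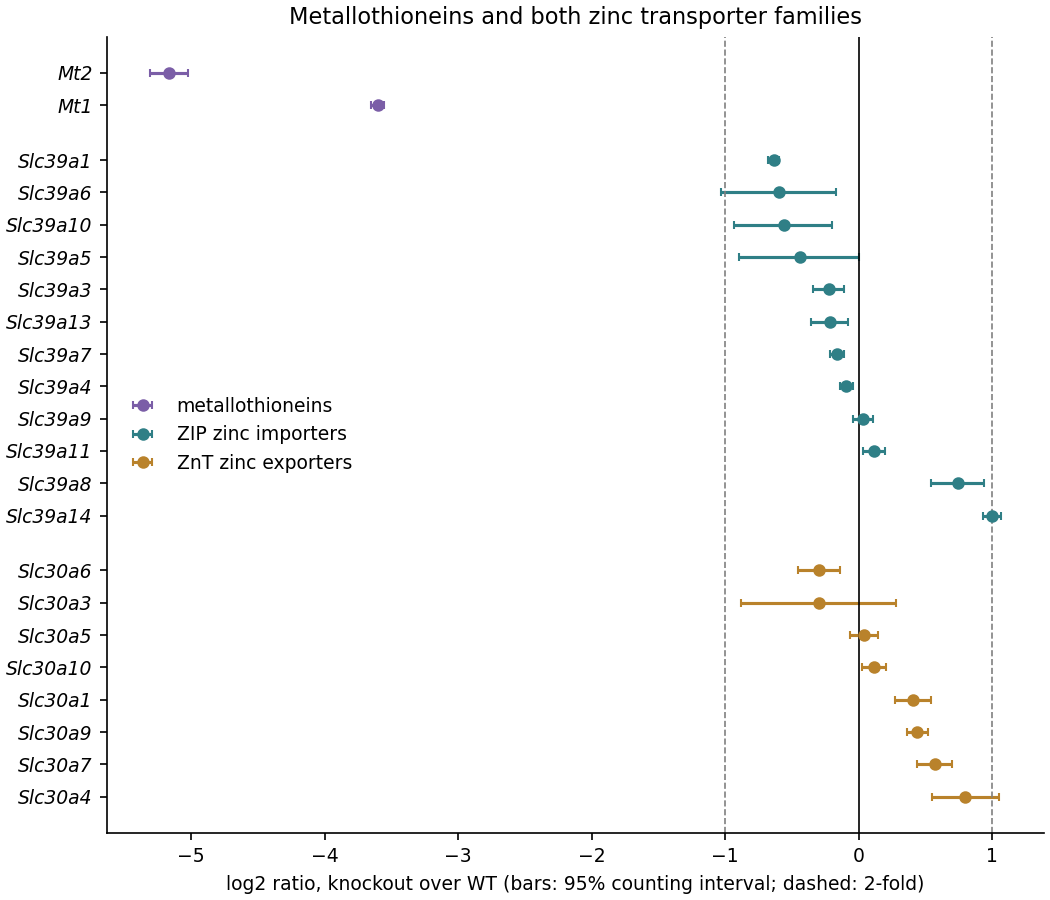
log2 ratio of knockout over WT (x axis) for the 2 metallothioneins, 12 ZIP and 8 ZnT genes averaging 50 counts or more, with bars for the 95% counting interval and dashed lines at 2-fold. Mt2 at -5.16 and Mt1 at -3.60 stand alone below the lower line, and Slc39a14 sits at the upper line.

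Genes that handle other metals were mixed. Of 12 copper genes compared 2 were higher and 1 lower (median 0.19). The vesicular copper transporter gene Slc31a2 had a log2 ratio of 1.76 (170 and 543 counts), the copper chaperone Cox17 one of 1.01, the metalloreductase Steap4 one of -1.72 (13974 and 3998 counts) and ceruloplasmin (Cp) one of -0.42. When libraries were scaled by total counts, 1 copper gene was higher. Of 8 manganese genes, 0 were past the limit (median 0.27; 1, Slc39a14, with the GC trend removed), from Slc11a2 at -0.23 and Atp2c1 at -0.11 to Slc39a8 and Slc39a14. Of 16 zinc metalloenzyme genes 3 were higher and 2 lower (median 0.26), beside 8.45% higher and 8.61% lower among all genes compared. With total counts, and also with the GC trend removed, 2 were higher, and the median was 0.21 and 0.42. The carbonic anhydrases Car3 (8223 and 29253 counts, log2 ratio 1.92) and Car14 (1.44) stood highest, and alkaline phosphatase Alpl (-1.60) and aminopeptidase Anpep (-1.27) lowest.

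Signals that are known to act on metallothionein genes were followed through lists of their other responsive genes. Of 17 interleukin 6 and STAT3 response genes compared, 12 were lower and 1 higher, with a median log2 ratio of -1.33. Among all genes compared, 8.61% were lower and 8.45% higher. Saa2 (-6.62) and Lcn2 (-4.87), which encode secreted acute phase proteins, were the lowest, Fgg had a ratio of -0.38, and the transcription factor Cebpb, with 1 exon, was highest at 1.24. Most of this list had shown its direction in an earlier treatment of these data, so it is no independent support.

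Glucocorticoid-responsive genes went both ways. Of 11 compared, 2 were lower and 1 higher, with a median of -0.18, beside 8.61% lower and 8.45% higher among all genes compared. Fkbp5, a chaperone of the glucocorticoid receptor, had 4020 and 711 counts (log2 ratio -2.41) and Cdkn1a one of -1.14, while Tsc22d3, which encodes GILZ, had 4184 and 7991 counts (log2 ratio 1.02) and Sgk1 one of 0.90. With total counts 3 were lower and 0 higher, and with the GC trend removed 1 was lower and 0 higher. Of 7 targets of the oxidative stress factor NRF2, 1 was lower and 0 higher (median 0.06), from heme oxygenase Hmox1 at -1.27 and Txnrd1 at -0.88 to Nqo1 at 0.84 and Gclc at 0.96. Counts this small set neither list apart from all genes compared.

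**Figure D5:**
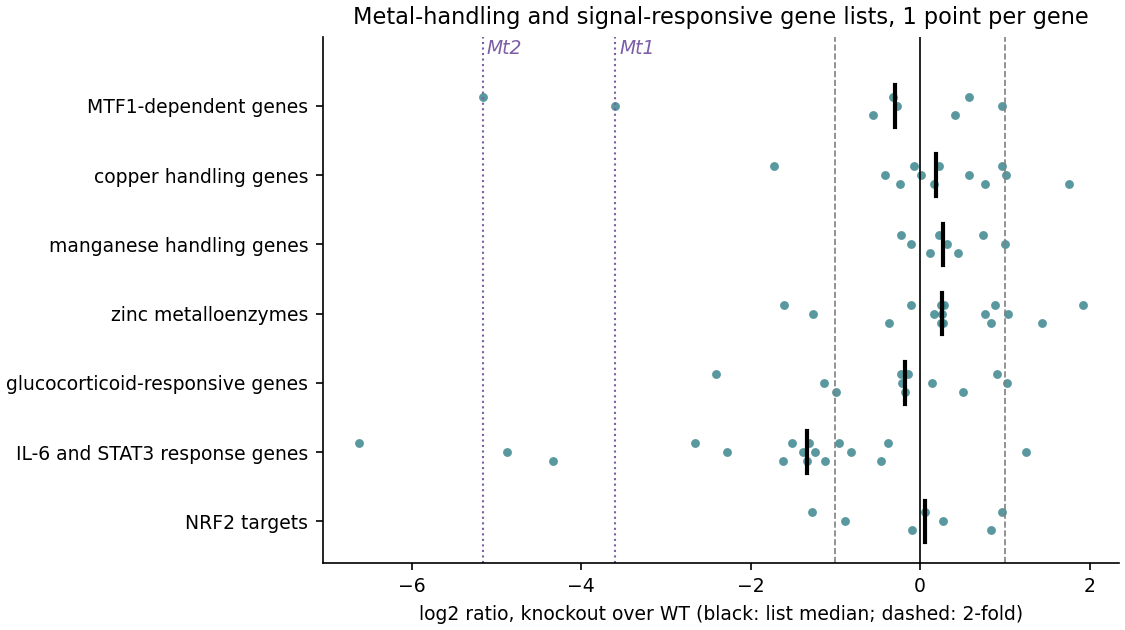
log2 ratio of knockout over WT (x axis) for 7 gene lists, 1 point per gene averaging 50 counts or more, with list medians in black, 2-fold limits dashed and the ratios of Mt1 and Mt2 dotted. The interleukin 6 and STAT3 list has its median at -1.33, and the other medians lie between -0.29 and 0.27.

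Erythroid and neutrophil markers were mostly lower in the knockout library, as the metallothioneins were, and markers of other cells were mixed. Of 6 erythroid markers compared 5 were lower and 0 higher (Alas2 stood at 0.55), and the summed level over the list was 3087 CPM in WT and 784 CPM in the knockout. Of 7 neutrophil markers 5 were lower and 0 higher, with 60.5 and 22.2 CPM. The shares over all genes compared were 8.61% lower and 8.45% higher. None of these markers was listed at 0 in both libraries, and their part in the metallothionein result was not tested. Summed levels of Kupffer cell markers were 1197 and 896 CPM (1 of 7 higher, 0 lower), those of sinusoidal endothelium 341 and 325 (1 of 7 lower), those of stellate cells 149 and 141 (1 of 8 lower), those of cholangiocytes 26.9 and 16.5 (1 of 5 lower) and those of lymphocytes 14.2 and 16.6 (0 of 4 past the limit). Of 7 pancreatic acinar markers 5 were listed at 0 in both libraries (summed level 20.5 and 37.3 CPM), and of 7 enterocyte markers 3 (460 and 116 CPM, carried by Apoa4, which liver also expresses). In bulk RNA, fewer cells of a type and less RNA per cell cannot be told apart.

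The 5 genes nearest to the summed metallothioneins in log2 ratio (-3.86), taken from genes of 3 or more exons that averaged 1000 counts or more, were Rgp1 (-3.60), Rab43 (-4.23), Tob2 (-4.26), Saa1 (-4.33) and Mrps2 (-3.39). Likeness over 2 libraries is a single ratio, so many genes share it: 125 of the genes compared had a ratio as low as that of the sum.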

How the data were processed

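The authors deposited unnormalized counts of reads for each Ensembl gene, per the file headers, and the submitters' processing notes name the build GRCm38 (mm10). Aligner, counting program, strand use and treatment of multi-mapping reads are not stated in the labels. Each of the 2 libraries was 1 group, taken from its genotype label. Names, positions, exon numbers (of the transcript with most exons), transcript lengths and GC were read from GENCODE M21 (GRCm38), and promoter windows from RefSeq (GRCm38.p6). Of 55421 genes 55240 matched.

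Counts were scaled with TMM factors (edgeR 4.0.16, R 4.3.3), 1.02 for WT and 0.982 for the knockout, and 0.5 reads were added before the log2 ratio was taken. Genes averaging 50 counts or more were compared and counted as higher or lower at 2-fold. Intervals for ratios are exact conditional (Clopper-Pearson) at 95%, those for levels exact Poisson and those for shares Wilson. Reads from PCR carry no molecular identifiers here and are not independent molecules, and all of these cover counting error only. No test was made, since each genotype has 1 library. The calculations were tested on simulated counts.

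Alternatives were DESeq2 1.42.0 size factors, total counts, 5 added reads, a lowess trend with GC content removed (span 0.3), other filters and limits, and the longest transcript as length. TMM over genes with at least 4 exons, and adding the counts of Gm45774, were chosen after seeing the data.

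The 7 genes and the lists were chosen with earlier results of these data known. Named are the 7 genes, every compared ZIP and ZnT gene, the 2 highest and 2 lowest of each other metal or signal list, and the 5 genes nearest to the summed metallothioneins, leaving out predicted genes and bare identifiers. Other genes (Gm45774, other overlapping genes, genes below the filter, 0-count markers, Apoa4) were named after their values were seen.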

Additional observations from a re-analysis of the deposited data

How the results depend on the processing

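Mt1 and Mt2 were lower by over 8-fold under every scaling, added read count and correction run, and 2 genes of the 7 stayed lower by 2-fold under each of the alternative filters and limits. With total counts the log2 ratio was -3.65 for Mt1, -3.91 for the sum of Mt1 and Mt2 and -0.14 for Slc39a4. With the GC trend removed it was -3.41 for Mt1, -5.00 for Mt2, -3.68 for the sum, 1.19 for Slc39a14, 0.15 for Slc39a4, 0.58 for Slc30a1 and -0.0012 for Slc30a10, so the sign of Slc39a4 and Slc30a10 rests on that choice. With counts of Gm45774 added it was -4.46 for Mt2 and -3.81 for the sum. The number of the 7 genes that counted as higher was 1 in place of 0 with the GC trend removed and also with a limit of 1.5-fold, and that gene was Slc39a14. Among all genes, 3366 were higher and 3556 lower with no filter, and 452 and 465 with a mean of at least 500 counts. At 4-fold the numbers were 303 and 338, and at 1.5-fold 2289 and 2267. The filters change which genes are admitted, and the limits change how many of the same genes are counted. No paired analysis was possible because each genotype has 1 library, and no library could be left out. Depth limits the genes with the fewest counts, such as Slc30a3, with an interval from -0.88 to 0.28, and Slc39a6, with one from -1.03 to -0.17.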
